A study of Rattus norvegicus with 22 samples.

Results

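Gene expression in phenotypically normal tongue lying next to an oral squamous cell carcinoma was described from 11 arrays, 1 per rat, chosen by their label as normal tissue from the 22 arrays of the series. The 11 arrays of carcinoma tissue were not used and no comparison with them was made. The donors were male F344 rats, an inbred strain, aged about 33 weeks, that had received the carcinogen 4-nitroquinoline-1-oxide (4-NQO) for 10 weeks in their drinking water, at 20 ppm, with tissue harvested 23 to 26 weeks after the first exposure. The labels call the normal pieces untreated, whereas the deposited protocol takes them from tongues of the same 4-NQO-exposed animals. The tissue was therefore carcinogen-exposed tongue free of visible tumor, and tongue of unexposed rats was not analysed here. The site on the tongue from which each piece was cut was not given in the sources used here. The rats are named below by their numbers, which were 4, 9, 11, 13, 16, 17, 21, 22, 24, 25 and 26.

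Each RNA was labelled with 1 dye and hybridized to an Agilent rat array, which measures 30367 probes of 60 bases under 26583 gene names. A level is given throughout as the log2 processed signal minus the 75th percentile of its array, so that 0 marks that percentile and 1 unit is a 2-fold difference in signal. Where a gene had several probes, the brightest was used. The 75th percentile itself ran from 236.8 signal units in rat 26 to 654.9 in rat 24, and the number of genes well above background, the detection call of the scanner software, from 13012 in rat 26 to 15013 in rat 24. Levels of the genes detected on all arrays correlated between any pair of arrays with r from 0.954 to 0.991, across genes, and no array was a copy of another. The arrays lay on 3 slides, with rats 4, 9, 11 and 13 on the first, rats 16, 17, 21 and 22 on the second and rats 24, 25 and 26 on the third. Each slide was scanned as 1 run, so slide and scan run cannot be told apart.

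The rat tongue is a block of interlaced striated muscle covered by a stratified squamous epithelium. In that epithelium, basal cells divide and their daughters move outward, switching from basal keratins to suprabasal keratins and then to the cross-linked proteins of the cornified layer. The dorsal surface carries filiform papillae, horny spines whose cells make keratins otherwise typical of hair and nail. Serous and mucous glands lie between the muscle bundles at the back of the tongue, and taste buds sit in a minority of papillae. Contraction of striated muscle rests on the sarcomere, in which fast and slow fibres use different isoforms of the myosin heavy chain, the troponins and the regulatory light chains. In RNA from whole tissue, fewer cells of a type and less RNA per cell cannot be told apart.

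The probes behind the main results are shown because a probe reads only 60 bases. Members of the keratin and myosin families are alike in sequence. Capitals mark the longest run of bases that a probe shares with another probe of the same set. The array annotation places them on assembly rn4 and does not say which part of a transcript a probe covers.
Krt85, chromosome 7, 140263682 to 140263741, minus strand: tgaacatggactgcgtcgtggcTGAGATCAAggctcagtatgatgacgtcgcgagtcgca
Krt34, chromosome 10, 88974028 to 88974087, minus strand: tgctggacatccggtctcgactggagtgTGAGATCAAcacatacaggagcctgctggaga
Krt33a, chromosome 10, 88941299 to 88941358, minus strand: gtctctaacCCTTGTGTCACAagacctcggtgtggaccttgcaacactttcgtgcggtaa
Krt33b, chromosome 10, 88954496 to 88954555, minus strand: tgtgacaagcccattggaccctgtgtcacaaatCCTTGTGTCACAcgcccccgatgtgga
Sprr3, chromosome 2, 185436598 to 185436657, minus strand: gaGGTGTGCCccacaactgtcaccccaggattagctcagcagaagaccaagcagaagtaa
Myh8, chromosome 10, 54002239 to 54002298, plus strand: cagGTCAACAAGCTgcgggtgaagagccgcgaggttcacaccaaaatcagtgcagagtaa
Myh13, chromosome 10, 54086927 to 54086986, plus strand: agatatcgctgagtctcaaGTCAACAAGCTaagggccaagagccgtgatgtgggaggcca
Among 10 hair-type keratin probes the longest run shared by any of the 45 pairs was 12 bases, between Krt33a and Krt33b. Among 7 striated myosin heavy chain probes it was 11 bases, between Myh8 and Myh13. Among 4 cornified-layer probes it was 19 bases, between Lce1m and Lce1d. The 4 were Sprr3, Lor, Lce1m and Lce1d, so Sprr3 was not compared with another small proline-rich gene. The capitals in the Sprr3 probe are shared with Lor. Whether a probe also binds the transcript of a relative was not tested, so values of single members of these families are uncertain to that extent.

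The brightest signals came from striated muscle, from ribosomes and from the outer epithelium. Of the 30 brightest genes with a symbol, 13 act in muscle contraction or muscle energy supply, 8 encode ribosomal proteins, 6 are genes of stratified epithelium and 3 are others (Tpt1, Ubb and Gapdh). They ranked between 7 and 70 among all gene names, since many of the brightest probes carry no symbol. Brightness also depends on the probe, so this is an order of probe signals and not of transcript amounts.

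**Figure D1:**
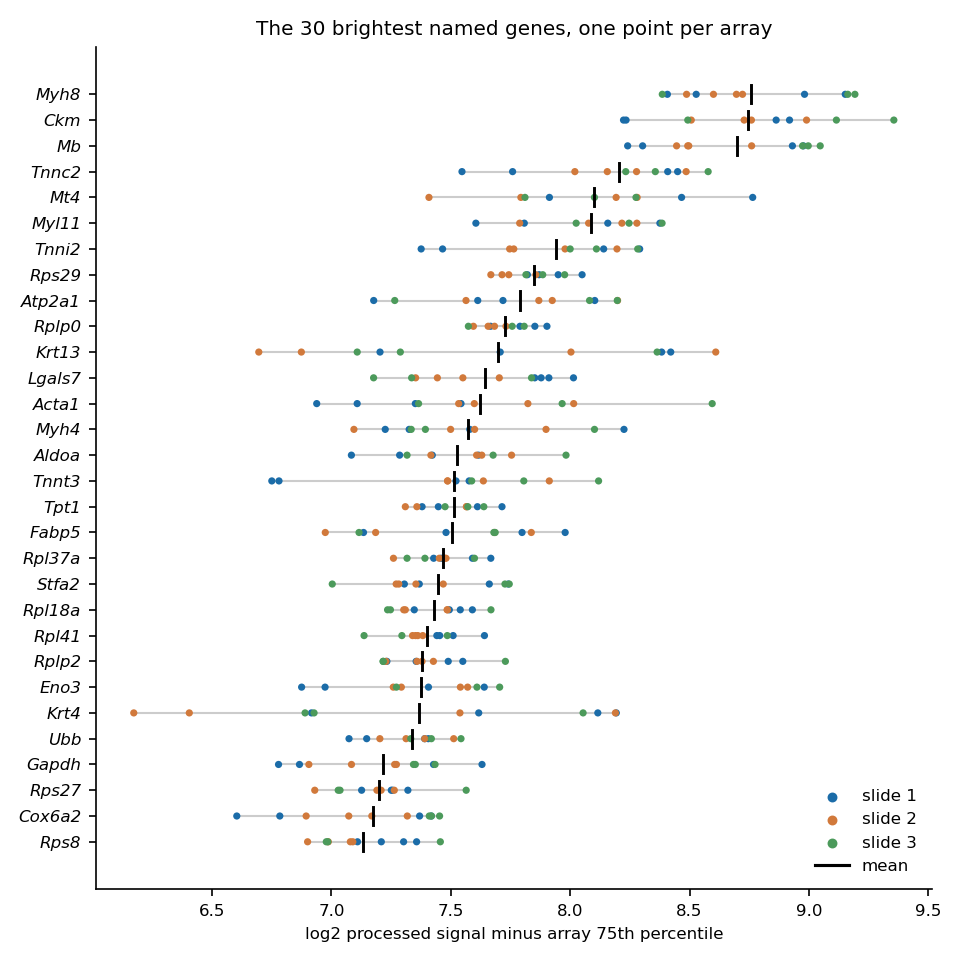
The 30 brightest named genes. The x axis is the level (log2 processed signal minus the 75th percentile of the array), each point is 1 of 11 arrays coloured by slide, the grey line spans the arrays and the black bar is the mean. Krt13 and Krt4 spread most, and the ribosomal protein genes, such as Rps29 and Rplp0, least.

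Myh8, the perinatal myosin heavy chain, gave the brightest signal of a named gene, with levels from 8.39 in rat 24 to 9.19 in rat 26 and a median of 8.70 (mean 8.76 ± 0.31, SD, n = 11). Ckm, muscle creatine kinase, ran from 8.22 to 9.36 with a median of 8.76 (mean 8.74 ± 0.36). Mb, the oxygen store myoglobin, ran from 8.24 to 9.05 with a median of 8.76 (mean 8.70 ± 0.31). Rats 25 and 26 were among the highest and rat 4 among the lowest for each of these genes. Next among muscle genes came the fast-fibre set. Tnnc2, the calcium-binding troponin of fast fibres, had a mean of 8.21 ± 0.32, Myl11 (listed on the array as Mylpf), the fast regulatory light chain, 8.09 ± 0.26, Tnni2, fast troponin I, 7.94 ± 0.32 and Atp2a1, the calcium pump of fast fibres, 7.79 ± 0.36. Acta1, skeletal muscle actin, reached 7.62 ± 0.46 and Myh4, the 2B myosin heavy chain, 7.57 ± 0.36.

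Of 31 sarcomere and calcium-handling genes on the array, 27 were well above background on all 11 arrays, beside 54.2% of all 17357 genes with a symbol. All 16 muscle energy genes were detected on every array. Slow-fibre genes were uneven. Myl3, a light chain of slow and ventricular muscle, was detected on all arrays with a mean of 2.05 ± 0.82. Myh7, the slow myosin heavy chain, was detected on no array. Tnnc1, troponin C of slow fibres, was detected on 6 arrays. Ttn, which encodes the giant spring protein titin of every sarcomere, was likewise undetected on all 11 arrays through its only probe, which shows that an undetected probe does not mean an absent transcript. Of the developmental and heart isoforms, Actc1, cardiac actin, had a mean of 4.83 ± 0.27, while Myh6, Tnni3 and Nppa, typical of heart muscle, were detected on no array. Pax7, the factor of muscle stem cells, and Chrng, the fetal acetylcholine receptor subunit, were also detected on no array, whereas the myogenic factors Myod1, Myf5 and Myf6 were detected on all.

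Among epithelial genes, Krt13 and Krt4, the keratin pair of suprabasal cells in internal stratified epithelia, were the brightest keratins. Krt13 ran from 6.70 in rat 21 to 8.61 in rat 16 with a median of 7.71 (mean 7.70 ± 0.69). Krt4 ran from 6.17 in rat 21 to 8.19 with a median of 7.54 (mean 7.37 ± 0.74). Mt4, a metallothionein of stratified epithelium, had a mean of 8.10 ± 0.39 over 10 arrays, since its spot in rat 4 was marked as an outlier and left out. Lgals7, a galectin of stratified epithelia, reached 7.64 ± 0.28, Fabp5, the epidermal fatty acid carrier, 7.50 ± 0.34, and Stfa2, a cystatin-type protease inhibitor, 7.45 ± 0.24. The basal keratins followed closely, with Krt14 at 7.09 ± 0.25, Krt17 at 6.51 ± 0.23, Krt15 at 6.18 ± 0.38 and Krt5 at 5.73 ± 0.28. Keratins of simple epithelia were much dimmer. Krt18 was detected on no array, Krt7 on 1, Krt8 on 2 and Krt19 on 9.

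The defining markers of the labelled tissue, those of striated muscle and stratified squamous epithelium, were thus present at high levels. Connective tissue and vessels were present at middle levels, with Col3a1, a fibrillar collagen, at 4.81 ± 0.32, Sparc, a matrix-binding protein, at 4.09 ± 0.18, and Aqp1, the water channel of endothelium and red cells, at 3.54 ± 0.20. All 15 endothelial and pericyte genes and 22 of 24 fibroblast and matrix genes were detected on all arrays. Schwann cell genes were detected as well, with the myelin genes Pmp22 at 2.76 ± 0.21 and Mbp at 2.34 ± 0.22. Blood was present, with Hba-a1, an alpha globin, between 6.33 and 7.47 with a median of 6.94.

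A gene was counted as undetected when its probe was well above background on none of the 11 arrays. This held for 10215 of 26583 gene names (38.4%), and for 5621 of the 17357 with a symbol (32.4%). On all 11 arrays 12733 gene names (47.9%) were detected, and 3635 (13.7%) were detected on some arrays. Families known from sense organs and lists of other organs held mostly undetected genes, as the plot of detection by list shows.

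**Figure D2:**
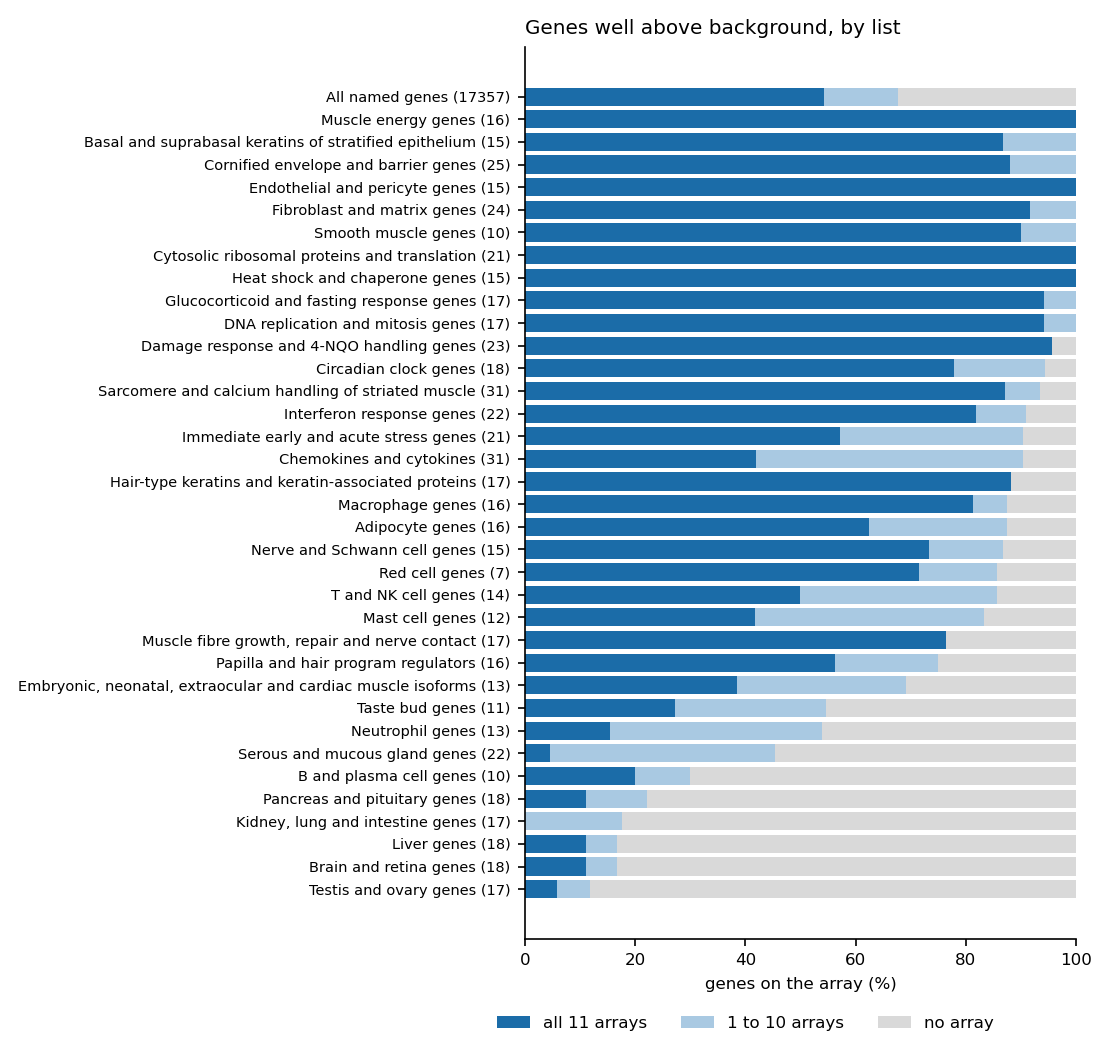
Detection by list of marker genes. Each bar gives the percent of the genes of a list on the array (number in parentheses) that were well above background on all 11 arrays, on 1 to 10 arrays or on no array, with all 17357 named genes at the top. Lists of muscle energy, endothelial, heat shock and ribosomal genes are detected in full on all arrays, and lists of liver, gonad, brain, kidney, lung and intestine genes almost not at all.

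Olfactory receptors, which sense odorants in the nose, made up the largest undetected family, with 1093 of 1163 (94.0%) on no array. Only 5 of them were detected on all arrays, Or2ak6 brightest at 0.02 ± 0.29. Of 68 vomeronasal receptors 63 were undetected, and Vom2r34 stood out at 1.34 ± 0.43. All bitter receptors of the Tas2r group were undetected, as were 31 of 33 taste receptors in all, the other members being Tas1r1, the umami receptor subunit, on 9 arrays and Tas1r3 on 1. The taste transduction genes Gnat3, Plcb2 and Trpm5 were undetected too, while Entpd2, the ATPase of the supporting cells of taste buds, was detected on all arrays at 1.89 ± 0.20. Of 31 Hox cluster genes 27 were undetected and Hoxd9 alone was detected on all arrays, at -1.48 ± 0.33.

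Genes of other organs served as a check of specificity. Undetected were 15 of 18 liver genes, among them Alb (albumin), Apoa1 and Ttr, 14 of 18 pancreas and pituitary genes, 15 of 17 testis and ovary genes, 15 of 18 brain and retina genes and 14 of 17 kidney, lung and intestine genes. Of these genes 7 were detected on all arrays. Tf, transferrin, had a level of 1.42 ± 0.26, Cpa1, a carboxypeptidase best known from pancreas, 1.87 ± 0.38, Pomc, the hormone precursor of the pituitary, -1.68 ± 0.32, Insl3, a hormone of Leydig cells, -0.89 ± 0.27 and Th, the rate-limiting enzyme of catecholamine synthesis, -1.12 ± 0.22. Serpina1, the main blood protease inhibitor, was at -2.57 ± 0.81 and Gnat1, the transducin of rod cells, at -2.34 ± 0.40. Beta-defensins, small antimicrobial peptides, were uneven, with 30 of 39 undetected but Defb4 between 1.69 and 5.18 with a median of 3.90 and Defb5 at 2.26 ± 0.78.

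Immune genes differed by cell type. Macrophage genes were mostly present, 13 of 16 on all arrays, with Cd74, the invariant chain of antigen presentation, at 4.45 ± 0.36 and the complement genes C1qa at 3.12 ± 0.32 and C1qb at 3.11 ± 0.36. Mast cell proteases were present, with Cma1 (chymase) at 1.23 ± 0.53 and Tpsb2 (tryptase) at 1.09 ± 0.50. T cell genes were dim, Cd3d at -1.57 ± 0.56 and Cd4 at -2.44 ± 0.52, and Cd8b was undetected. B and plasma cell genes were undetected for 7 of 10, including Ms4a1, Cd79b and Mzb1. Of 13 neutrophil genes 6 were undetected, all of them granule genes (Mpo, Elane, Camp, Ngp, Lcn2 and Mmp8), and the alarmins S100a8 and S100a9, which keratinocytes also make, were detected on all arrays at -0.61 ± 0.80 and -0.04 ± 0.93. Of 31 chemokine and cytokine genes 13 were detected on all arrays, 15 on some and 3 on none, namely Il6, Il10 and Cxcl3. Ptgs2, the inducible cyclooxygenase, was also detected on no array.

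Genes of carcinogen handling and DNA damage were nearly all present, 22 of 23 on all arrays. Aldh3a1, an aldehyde dehydrogenase of surface epithelia, was brightest at 5.73 ± 0.21, followed by Gstp1, a glutathione transferase, at 4.49 ± 0.31 and Cdkn1a, the p53-controlled cell cycle inhibitor p21, at 4.14 ± 0.31. Nqo1, the quinone reductase that takes part in reducing 4-NQO, was at 1.92 ± 0.50. Gclm, the modifier subunit of glutamate-cysteine ligase, was undetected. Cytochrome P450 genes were undetected for 43 of 77, yet Cyp2t1 reached 5.86 ± 0.33 and Cyp2f4 ranged from 3.95 to 6.17 with a median of 5.65. Without unexposed tongue, whether any of these levels differ from the unexposed state was not tested.

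The spread between arrays was small for most genes and very large for a few. Over the 12733 gene names detected on all arrays the SD of the level had a median of 0.23, and 1068 (8.39%) had an SD of at least 0.5, 183 (1.44%) of at least 1 and 17 (0.134%) of at least 2. Repeat spots of 1 probe within an array had a median SD of 0.07 over 1097 such probes detected on all arrays, and the same probes had a median SD of 0.20 between arrays. For the 7 spike-in probes, whose RNA is added at a fixed amount, the SD between arrays after scaling had a median of 0.36, with the largest mean level in rat 24. The steadiest genes with a level above 0 were Kdelr1, an endoplasmic reticulum retrieval receptor, between 2.14 and 2.28 (SD 0.05) and Get4, between 0.51 and 0.68 (SD 0.05).

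**Figure D3:**
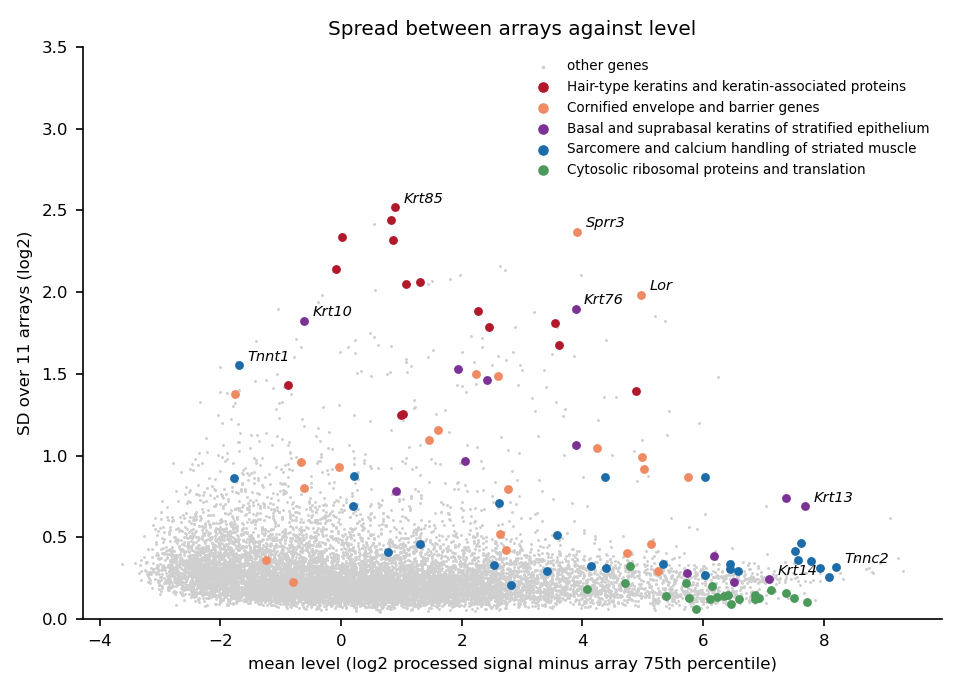
SD over the 11 arrays against mean level for genes detected on all 11, with 5 lists coloured. All 15 hair-type keratin and keratin-associated genes lie at an SD above 1, and 20 of the 21 ribosomal and translation genes lie below the median of all genes (0.23).

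The genes that differed most between rats were those of hair-type keratins and of the cornified layer. Of the 30 named genes with the largest SD, 8 were hair-type keratins, 5 keratin-associated proteins, which cross-link those keratins, 8 cornified-layer or suprabasal genes, 5 proteases or protease inhibitors and 4 others (S100a7l2, Trex2, Lyg1 and Gsdma). These genes were chosen for their spread, which therefore gets no test. The 50th named gene, Pspn, had an SD of 1.42 and the next, Il36b, of 1.40, so the edge of such a list is gradual.

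Krt85, a type II hair keratin, had the largest SD among genes detected on all 11 arrays. Its level was 4.63 in rat 16, 3.62 in rat 4, 3.03 in rat 17, 2.72 in rat 9 and 2.52 in rat 26, then 0.86 in rat 25, -0.63 in rat 13, -1.14 in rat 21, -1.49 in rat 24, -1.58 in rat 11 and -2.74 in rat 22. The highest and lowest arrays differed by 166-fold in signal (SD 2.52). No group labels separate high from low rats, since all 11 belong to 1 group. Krt31, a type I hair keratin, was high and low in the same rats, from -2.77 in rat 22 to 3.68 in rat 16 with a median of 0.07 (SD 2.34), and Krt34 ran from -1.48 to 4.51 with a median of 1.50 (SD 2.06). Over the 11 rats, the genes most like Krt85 were Krt86 (r = 0.998), Krt33b (0.997), Krt33a (0.997), Krt87 (0.996), which the array lists as Krt83, and Krt31 (0.993). Krt36 was the brightest hair-type keratin, with a mean of 4.88 and a range from 2.55 to 6.60, and Krt32 and Krt84 were undetected.

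The keratin-associated proteins shared most of this pattern. Krtap3-1 ran from 0.80 in rat 22 to 6.13 in rat 16 with a median of 3.62 (SD 1.81), a 40.3-fold range, and Krtap13-2 from 1.25 to 6.09 with a median of 3.67 (SD 1.67). A second probe for Krtap13-2 gave an SD of 1.59 and correlated with the first at r = 0.998 over the 11 rats. Of 14 genes of this family on the array, 10 were detected on all arrays and 4 on none. Rat 13 stood lower in Krtap3-1, at 1.66, than its middle rank in cornified-layer genes.

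Cornified-layer genes moved in the same rats. Sprr3, a small proline-rich protein cross-linked into the cell envelope, was 6.83 in rat 16, 6.26 in rat 4, 6.06 in rat 9, 5.92 in rat 26 and 5.39 in rat 17, against 0.07 in rat 21, 1.21 in rat 22, 1.60 in rat 11 and 2.11 in rat 24, with rats 13 and 25 between at 4.35 and 3.26. The range was 109-fold (SD 2.37). Lor, loricrin, the main envelope protein, ran from 2.10 to 7.30 with a median of 5.36 (SD 1.99). Lce1m, a late envelope protein, ran from -0.07 to 5.78 with a median of 2.65 (SD 2.14). Krt76, a suprabasal keratin of oral epithelium, ran from 1.37 in rat 22 to 6.26 in rat 4 with a median of 3.96 (SD 1.90). Ivl (involucrin) and Flg (filaggrin) were detected only on 6 and 4 arrays, and those with Flg were rats 4, 9, 16 and 17. Of 22 barrier genes detected on all arrays, 8 had an SD of at least 1, among them Spink5 and Klk7, a protease inhibitor and a protease of cornified-layer shedding. Desmosomal genes were uneven, with SDs of 0.29 for Pkp1, 0.40 for Jup, 0.46 for Dsp and 0.23 for Dsg3 but 1.66 for Dsc1, a cadherin of the upper layers, which ran from -2.80 in rat 22 to 1.77 in rat 16.

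The basal layer did not follow. Krt14 stayed between 6.63 and 7.50 with a median of 7.12, Krt5 between 5.34 and 6.10 with a median of 5.78, Krt15 between 5.58 and 6.81 with a median of 6.20 and Krt17 between 6.15 and 6.87 with a median of 6.46. Their signals thus differed by at most 2.35-fold between rats, whereas Krt13 and Krt4 of the layer above differed by 3.77-fold and 4.06-fold. Rat 16, highest in Krt85, was among the lowest in Krt5 at 5.36, and rat 4, next in Krt85, was at 5.90. DNA replication and mitosis genes had a list mean between -1.01 in rat 26 and 0.02 in rats 13 and 21. The regulators of papillae and hair had smaller spreads than the hair-type keratins, with Tlx1 at 1.45 ± 0.39, Sox2 at 1.04 ± 0.35 and Dlx3 at 1.47 ± 0.49. Over the 9 detected on all arrays the median SD was 0.41 and the highest 0.78. Of these 9, 8 had an SD above the median of all genes, 0.23. Hoxc13, a factor that acts on hair keratin genes, was undetected in all rats.

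**Figure D4:**
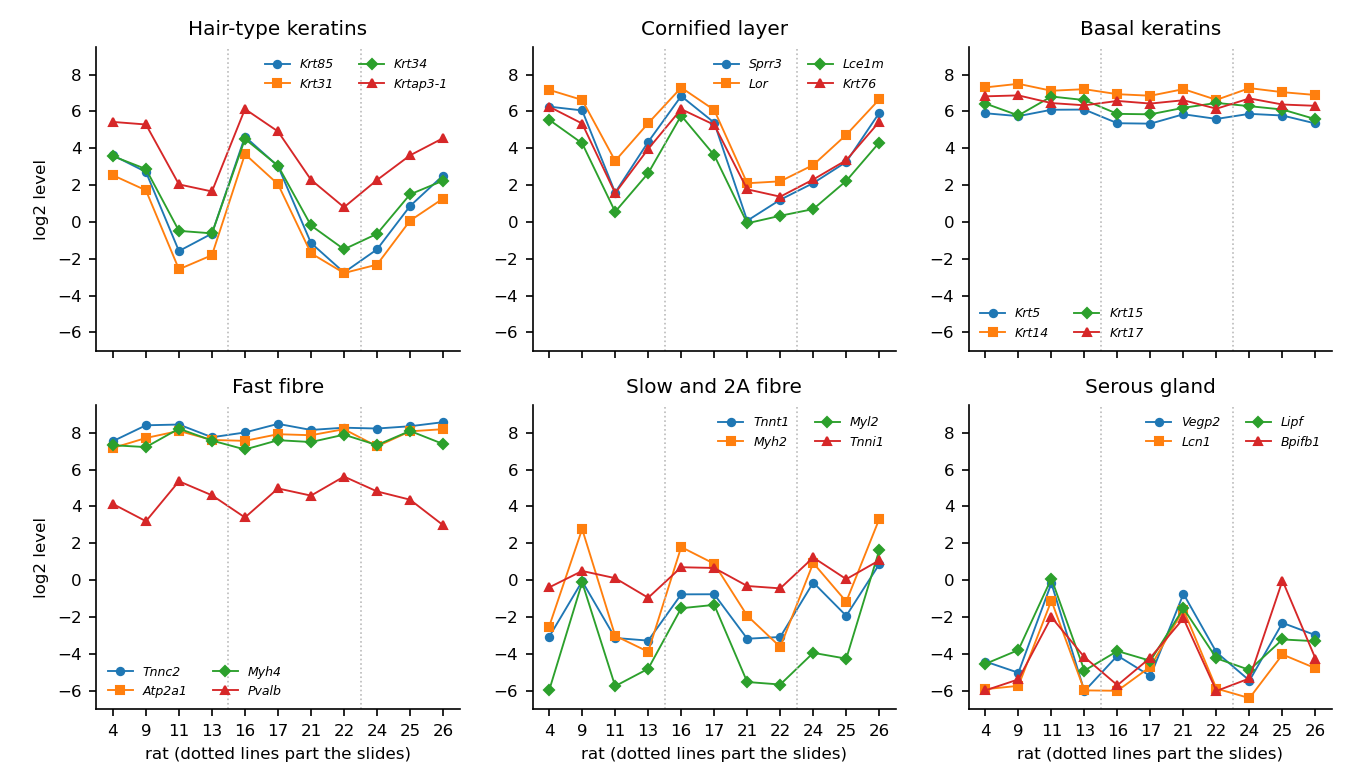
Level of 4 genes in each of 6 groups by rat, in order of slide. The y axis is the log2 level, points are arrays, the thin lines only join the points of a gene and the dotted lines part the slides. Hair-type keratins and cornified-layer genes rise and fall together, basal keratins stay level, and Tnnt1, Myh2 and Myl2 are high in rats 9 and 26. Vegp2, Lcn1 and Lipf are highest in rats 11 and 21, and Bpifb1 is highest in rat 25.

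Because these genes rose and fell together between rats, the sequence just before their start sites is shown, from RefSeq assembly GRCr8. Each line gives the 120 bases before the annotated start, with the letters TATAAA, the core of a TATA box, in capitals, searched on the strand of the gene.
Krt31, chromosome 10, 85483301 to 85483420, minus strand: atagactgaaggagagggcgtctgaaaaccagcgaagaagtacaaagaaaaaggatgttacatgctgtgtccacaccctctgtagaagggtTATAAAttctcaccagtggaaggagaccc
Krt34, chromosome 10, 85474502 to 85474621, minus strand: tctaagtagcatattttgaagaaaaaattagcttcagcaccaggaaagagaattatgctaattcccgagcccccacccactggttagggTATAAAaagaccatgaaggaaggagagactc
Krt76, chromosome 7, 134904163 to 134904282, minus strand: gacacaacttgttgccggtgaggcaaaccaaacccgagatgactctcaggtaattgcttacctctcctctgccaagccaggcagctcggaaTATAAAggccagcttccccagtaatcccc
Lce1m, chromosome 2, 181334301 to 181334420, minus strand: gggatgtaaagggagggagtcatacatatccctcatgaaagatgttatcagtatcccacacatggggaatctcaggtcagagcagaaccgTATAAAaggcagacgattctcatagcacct
Krt85, chromosome 7, 134515787 to 134515906, minus strand: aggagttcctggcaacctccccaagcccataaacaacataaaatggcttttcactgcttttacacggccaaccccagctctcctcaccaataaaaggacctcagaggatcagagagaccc
The letters began 29 bases before the start in Krt31 and Krt76, 31 in Krt34 and 30 in Lce1m, and were not in this window of Krt85. In other hair-type keratins they lay farther off, at 90 bases in Krt33b and 85 in Krt35. Anywhere in the window, they were found in 8 of the 12 hair-type keratin and keratin-associated genes that were detected on all arrays and have a promoter in the table, beside 1466 of all 33469 promoters (4.38%). In the other lists they were found in 5 of 18 barrier genes, 5 of 24 sarcomere genes, 2 of 7 stratified-epithelium keratins and 4 of 18 ribosomal and translation genes. Each of these shares was also above 4.38%. For the lists 1 promoter per gene was kept, which was not done for the share over all promoters. Of 2 other motifs searched in these lists, AP-1 was found in 1 of 18 barrier genes only and CArG in 2 of 24 sarcomere genes only. Both were in 0 of the 12 hair-type genes, beside 1.93% and 0.681% of all promoters. A match of letters is a description and not evidence of a working site.

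Some muscle genes also varied widely. Tnnt1, the troponin T of slow fibres, was 0.86 in rat 26, -0.06 in rat 9, -0.13 in rat 24, -0.76 in rat 17 and -0.77 in rat 16, -1.94 in rat 25, and between -3.28 and -3.08 in rats 4, 11, 13, 21 and 22 (SD 1.55). Its values fell into a lower set of 5 rats, an upper set of 5 and rat 25 between. Myh2, the 2A myosin heavy chain of fatigue-resistant fast fibres, ran from -3.89 in rat 13, where it was not well above background, to 2.78 in rat 9 and 3.32 in rat 26. Myl2, the slow and ventricular regulatory light chain, was well above background only in rats 9, 16, 17, 24 and 26, at -0.12, -1.52, -1.34, -3.95 and 1.63. Car3, a carbonic anhydrase of slow fibres, ran from -0.95 in rat 13 to 3.45 in rat 26 with a median of 0.60 (SD 1.50). It came next in rats 16 and 17 at 2.34 and 2.26, and was 0.60 in rat 24. Rats 16, 17 and 26 were also those in which Cidec, an adipocyte gene given below, was detected. Which cells gave the Car3 signal was not tested. Ankrd1, a stretch-responsive sarcomere protein, ran from -0.65 in rat 13 to 3.79 in rat 9 with a median of 2.91 (SD 1.44). Pvalb, the calcium buffer of the fastest fibres, was lowest in rats 26 and 9 at 2.99 and 3.20 and highest in rat 22 at 5.63. Myh13, the extraocular myosin heavy chain, was highest in rats 11 and 22 at 0.91 and -0.41. Of the upper 5 rats in Tnnt1, 4 (rats 9, 16, 17 and 26) were also among the 5 highest in Krt85, a cut made after the values were seen. Over the 11 rats the relation of Tnnt1 and Krt85 did not pass the threshold used below (r = 0.490, permutation p = 0.125, adjusted 0.301). Fast-fibre genes differed among themselves. Tnnc2, Atp2a1 and Myh4 had SDs between 0.32 and 0.36, whereas Myh1, the 2X myosin heavy chain, was lowest in rat 22 at 4.72 and highest in rat 26, a 6.41-fold range in signal (SD 0.87) and Actn3, the alpha-actinin of fast fibres, from -0.94 in rat 13 to 1.85 in rat 17 (SD 0.88).

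Adipocyte genes were partly steady and partly patchy. Acsl1, an acyl-CoA synthetase, was at 4.25 ± 0.22 and Cfd, complement factor D, at 2.64 ± 0.33. Dgat2, which makes triglycerides, had the largest spread of the 10 members detected on all arrays, from 1.90 in rat 21 to 4.02 in rat 4 (SD 0.62). In rat 4, Adipoq, Cidec and Retn were low, at -4.07, -6.30 and -5.80, so Dgat2 did not follow them and does not stand for fat here. Cidec, a lipid droplet protein, was well above background in rats 16, 17 and 26 only, at -1.46, -2.24 and -0.64. Retn, the adipokine resistin, was detected in rats 16, 17, 24 and 26. Adipoq, the adipokine adiponectin, was detected in 7 rats and was highest in rat 26 at 0.52 and in rat 16 at -0.22. Lep and Ucp1 were undetected in all rats.

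Gland genes were undetected in most pieces. Of 22 serous and mucous gland genes, 12 were detected on no array, among them Car6, Aqp5, Pip and Muc19, and only the ion transporter Slc12a2 on all. Products of the serous von Ebner glands were detected in some rats. Vegp2 was detected in rats 11, 21, 22 and 25 and was highest in rats 11 and 21 at -0.17 and -0.74. Lcn1, listed on the array as Vegp1, was detected in rats 11 and 21 alone, at -1.11 and -1.60. Lipf, the lingual lipase gene, was detected in rats 11, 21 and 25 at 0.09, -1.53 and -3.22. Bpifb1 was detected in the same 3 rats at -2.01, -2.08 and -0.02, so it was highest in rat 25. Rats 11 and 21 were both among the low rats for Krt85 and Sprr3, whereas rat 25 lay in the middle at 0.86 and 3.26.

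The remaining lists differed in spread. Beside a median SD of 0.23 over all genes, the median SD over the members detected on all arrays was 0.87 for the 2 such neutrophil genes, 0.65 for mast cell genes, 0.55 for T and NK cell genes, 0.46 for macrophage genes and 0.41 for smooth muscle genes and for DNA replication and mitosis genes. It was 0.14 for ribosomal and translation genes, 0.22 for nerve and Schwann cell genes, 0.23 for endothelial and pericyte genes and for heat shock genes, 0.28 for interferon response genes and 0.31 for circadian clock genes. Dbp, an output factor of the circadian clock, was the brightest clock gene at 4.82 ± 0.40, and Bhlhe41 the most variable at -2.51 ± 0.78. Among immediate early genes Nr4a3 varied most, from -3.62 in rat 13 to -0.64 in rat 24 with a median of -2.68, and Klf4, a factor of differentiating epithelium, was brightest at 3.34 ± 0.44. The times of day of collection were not given in the sources used here. T cell genes varied with Cd3g between -2.67 in rat 25 and -0.31 in rat 22, and macrophage genes with C1qc between 0.39 in rat 11 and 2.37 in rat 21.

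Relations across the rats were computed for all 28 pairs among the 8 genes that varied most in their lists, Tnnt1, Krt85, Krt76, Eln (elastin), Dgat2, Bhlhe41, Nr4a3 and C1qc, over 11 rats with two-sided permutation tests of 100000 resamples and Benjamini-Hochberg adjustment over the pairs. For 4 pairs both Pearson's r and Spearman's rho had an adjusted p below 0.05. The 8 genes were picked for their spread on these same arrays, from lists chosen with earlier results known. The p values are therefore not independent evidence that the genes vary together. Each value describes a pair of genes and not the lists or cell types they were taken from. Krt85 and Krt76 had r = 0.958 (permutation p = 6.0e-05, adjusted 0.00168) and rho = 0.936 (p = 7.0e-05, adjusted 0.00196), and r = 0.947 without the 2 rats farthest from the median of Krt85. Krt76 and Dgat2 had r = 0.894 (permutation p = 0.00018, adjusted 0.00252) and rho = 0.918 (p = 0.00014, adjusted 0.00196), and r = 0.930 without the 2 farthest rats. Krt85 and Eln had r = 0.862 (permutation p = 0.00092, adjusted 0.00859) and rho = 0.882 (p = 0.00087, adjusted 0.00812), and r = 0.781 without the 2 rats farthest in Krt85. Eln was dim, with a mean of -3.08 and levels from -4.13 to -1.97, so background limits its values. Krt85 and Dgat2 had r = 0.805 (permutation p = 0.00293, adjusted 0.0205) and rho = 0.80 (p = 0.00438, adjusted 0.0307), and r = 0.763 without the same 2 rats. With values centred within slide, the 4 values of r were 0.967, 0.917, 0.871 and 0.868 in the same order. The call for Krt85 and Dgat2 was lost without rat 4, 9, 16, 22 or 26 (r from 0.769 to 0.797), and with normexp background correction it was lost for that pair (r = 0.742) and for Krt85 and Eln (r = 0.719). None of the 7 pairs with Tnnt1 passed the threshold, which does not show that they are unrelated. The largest r among them was that with Krt85, at 0.490 (permutation p = 0.125, adjusted 0.301), with rho = 0.418 (p = 0.204, adjusted 0.442). Tnnt1 had mean levels of -2.39, -1.95 and -0.40 on slides 1, 2 and 3, and an SD of 1.30 after centring within slide. With values so centred, its r was 0.631 with Krt85, 0.638 with Krt76 and 0.648 with Dgat2. With the other genes it lay between -0.157 and 0.361. The values of Tnnt1 lay in separate sets, so any r with it is a description only.

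Genes most like the others of these 8 were, over the 11 rats and as a description, Psors1c2 (r = 0.995) and Lce1f (0.989) for Krt76, Abat (0.991) and Septin5 (0.976) for Dgat2, Lsm10 (0.933) and Arpc5l (0.924) for Tnnt1, Hnrnph2 (0.937) for Eln, Nfyc (0.950) for Bhlhe41, Timp1 (0.904) for Nr4a3 and Ms4a4a (0.973) and Fxyd2 (0.965) for C1qc. Among all 12733 gene names detected on all arrays, 622 (4.88%) had r of at least 0.8 with Krt85 and 492 (3.86%) of at most -0.8. Of the 50 most variable named genes, 47 had r of at least 0.8 with Krt85. These 50 were chosen for their spread on the same arrays, as was Krt85, so the count of 47 is a description only. The counts of 622 and 47 include Krt85 itself. All of these genes were read from the same arrays.

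The first principal component of the genes detected on all arrays held 44.5% of the variance, the second 20.2% and the third 10.8%. The first component followed Krt85, Krt86 and Sprr3, with rat 16 highest and rat 22 lowest. Genes of the opposite sign had smaller weights, led by Hmx1 at -0.030 and Pvalb at -0.026, beside 0.094 for Krt85. Farther down were Ccl2 at -0.019, Cd3g at -0.017 and Ccl7 at -0.016. The list mean of T and NK cell genes was highest in rats 22 and 21, at -1.18 and -1.47. It was lowest in rat 11, at -2.70, and all 3 rats were low on this component. The second separated rats 4 and 13, at 29.8 and 32.3, from rats 17 and 26, at -20.7 and -18.5, with Krt1 and Ly6d on 1 side and Car3, Ankrd1, Casq2 and Tnnt1 on the other. High and low values of the first component occurred on every slide.

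**Figure D5:**
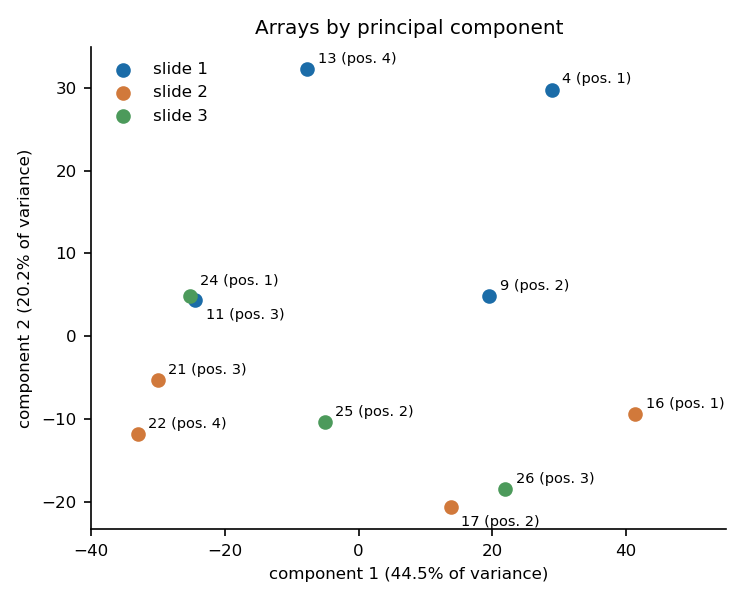
The 11 arrays by the first 2 principal components of gene-centred levels of 12733 genes detected on all arrays. Each point is a rat, coloured by slide and labelled with its position on the slide, and the axes give the share of variance. Rats of each slide spread along component 1, and rats 4 and 13 stand highest on component 2.

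The slides were compared as the batch that the file headers show. By limma's moderated F test with Benjamini-Hochberg adjustment over 26583 genes, 195 (0.734%) differed between the 3 slides at an adjusted p below 0.05. None of the 30 brightest and none of the 50 most variable named genes was among them by this limma test. An unadjusted p below 0.05 was found for 3 of the brightest and 0 of the most variable, beside 1875 of all 26583 genes. Such small sets do not show freedom from slide differences, and the most variable genes were chosen for a large spread, which makes a call harder. Of the 195, 180 had no gene symbol and 188 were highest on slide 2. The 5 named genes called by this test among those detected on all arrays were Txnip, Cox6c1, Mrpl3, RT1-A2 and 1700009N14Rikl. Txnip, a glucose-induced inhibitor of thioredoxin, had mean levels of -1.17, 0.44 and -0.34 on slides 1, 2 and 3 (adjusted p = 0.0180, limma). Leaving out rat 24 raised the number called to 1015, and leaving out any of rats 4, 9, 13, 17, 21, 22 or 25 lowered it to between 50 and 123.

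Krt85 had means of 1.03, 0.94 and 0.63 on slides 1, 2 and 3 (adjusted p = 0.993, limma), and its SD after centring within slide was 2.51. By position on the slide its means were 2.25 at position 1, 2.20 at position 2, -0.07 at position 3 and -1.69 at position 4, with 3, 3, 3 and 2 arrays. On slides 1 and 2 the first 2 positions were high and the last 2 low, whereas on slide 3 position 1 (rat 24) was low at -1.49 and position 3 (rat 26) high at 2.52. After centring within position, the SD was 1.91 for Krt85 and 2.02 for Sprr3. The part of array position in this spread was not tested.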

How the data were processed

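The intensity values were made by the authors with Agilent Feature Extraction 9.5.3.1, which subtracted each spot's local background and removed spatial trends, and were deposited per array in linear units, unscaled. The authors also deposited each signal as a ratio to the array's 75th percentile, used as an alternative. For 11 normal arrays, control spots and 5847 outlier spot values (1.24%) were left out, log2 signals of a probe's spots were averaged and the 75th percentile over probes was subtracted. No spot was saturated. The number of arrays limits the precision, and for dim genes so does the background. A probe counted as detected when at least 0.5 of its spots were well above background. No low-signal filter was used for levels. Symbols came from the array or, for 17679 probes, from RefSeq GRCr8 by accession. Named genes were the 30 brightest, the 30 most variable detected on all 11, up to 4 brightest and 3 most variable members and undetected defining members of 35 lists, the most variable gene of 8 lists with the 5 genes most like it, and departing family members. A few more members, such as those of 1 family or pattern, were named after their values were seen. Members and lists were chosen with earlier results of these data known. Slides were tested with limma 3.58.1 in R 4.3.3. On simulated data with these means and spreads over 26561 genes, 41 of 100 genes shifted by 1 log2 unit on slide 2 and 83 of 100 shifted by 2 were called, with 7 false calls. Python 3.11.15, numpy 2.4.6, pandas 2.3.3 and scipy 1.17.1 were used. Alternatives covered scaling, background correction, detection rules, probe choice, measures of spread, slide and leaving out each rat. Centring by array position was added after seeing the data. Nothing in the labels says that the arrays repeat any animal, and each is 1 rat. Some genes are not reported here.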

Additional observations from a re-analysis of the deposited data

How the results depend on the processing

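No paired analysis was possible because a single tissue was described and no groups were compared. Of the 30 brightest named genes, between 27 and 30 stayed in the list under every alternative run, and of the 50 most variable gene names (26 of them with a symbol) between 34 and 50, except that 29 stayed when genes detected on at least 6 arrays were admitted. Leaving out 1 rat at a time, the ranges were 29 to 30 and 42 to 49. The number of undetected genes was 10215, between 10195 and 10558 under other probe and spot rules and without single rats, but 3336 with the scanner's positive-and-significant flag, a looser call. The number detected on all arrays was 12733, with 15807 by that flag and from 12738 to 13283 without single rats. The first component's share stayed between 43.6% and 45.2% under other scalings and background correction and between 40.1% and 49.0% without single rats, highest without rat 13. The number of genes differing between slides was unstable, at 195 in the main setting, 318 after quantile normalization, 90 with the array median, 27 with normexp background correction, and 50 to 1015 without single rats (50 without rat 22, 1015 without rat 24). The cause was not tested. The number of gene pairs past the threshold was 4, from 3 to 5 elsewhere; the relation of Krt85 with Dgat2 missed it without rats 4, 9, 16, 22 or 26 (r = 0.769 to 0.797), and with normexp that relation (r = 0.742) and that of Krt85 with Eln (r = 0.719) missed it. No relation changed sign. Scaling by the array median or by the 75th percentile of detected probes moved all levels together, that of Myh8 from 8.76 to 11.84 and 6.92. Levels of dim genes are limited by background.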

Other observations

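Some genes detected on only part of the arrays varied as much as those above. Il36g, an epidermal member of the interleukin 1 family, was detected on 7 arrays and reached 1.09, and its relative Il36a on 10, with levels from -5.19 to 0.99 and a median of -1.13. Serpina12, the serpin vaspin, was detected on 8 arrays with a highest level of 0.70, and Cldn17, a tight junction protein, on 7 with a highest level of 0.72. Cxcl2 was detected on 2 arrays, with a highest level of -0.09. Cxcl13, a chemokine for B cells, was detected on 9 arrays and was highest in rats 22 and 21 at 0.28 and -0.36. Ada, adenosine deaminase, was bright in all rats but ran from 3.91 to 7.82 (SD 1.48, n = 11).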
